A study of Mus musculus with 6 samples.

Results

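To ask whether the jejunum of obese, overeating mice carried more transcripts of the machinery of cell division, 42 genes of the cell cycle and of DNA replication were followed. They were taken by gene symbol from the 23420 genes of the deposited count table, and were divided into 19 S phase genes and 23 mitotic genes. All 42 were present and all were among the 13168 genes tested. RNA was sequenced in bulk from whole proximal jejunum of male ob/ob mice, which lack functional leptin through a mutation of Lep and overeat, and of C57BL/6J wild type (WT) mice. Each group had 3 libraries, and each library was a pool of equal amounts of RNA from 2 jejuna. The ob/ob mice lack leptin in every tissue, so that their jejunum differs in genotype, body weight and food intake at once. The sources used here do not give the age of these animals.

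A cell that enters the cycle first makes cyclin E and E2F-driven transcripts, loads the MCM helicase on replication origins, and copies its DNA with the sliding clamp PCNA. It then accumulates cyclin A, cyclin B and CDK1, builds a spindle under the Aurora and Polo-like kinases, and is released from mitosis by the anaphase-promoting complex (APC/C). In the small intestine most dividing cells are stem cells and transit-amplifying progenitors in the crypts, while enterocytes on the villi have left the cycle.

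None of the 42 genes differed between ob/ob and WT jejunum at an adjusted p under 0.05 (quasi-likelihood test of edgeR with Benjamini-Hochberg adjustment over 13168 genes). Of all genes tested 5.67% passed that threshold. The count of members was also 0 with DESeq2, limma-voom and the likelihood ratio test of edgeR, and with each library left out in turn. The S phase genes were centred on no difference, with a median log2 fold change (ob/ob over WT) of -0.02, and 8 of 19 were above 0. The mitotic genes had a median of 0.21, and 21 of 23 were above 0, against a median of -0.01 and 47.3% above 0 over all genes tested. The mitotic value rested on single libraries. Without ob/ob library 1 the median of the mitotic genes was 0.03 and 13 of 23 were above 0, and without WT library 2 it was 0.14 and 18 of 23 were above 0. In whole tissue, a change in the number of dividing cells cannot be told apart from a change in transcript per dividing cell.

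**Figure D1:**
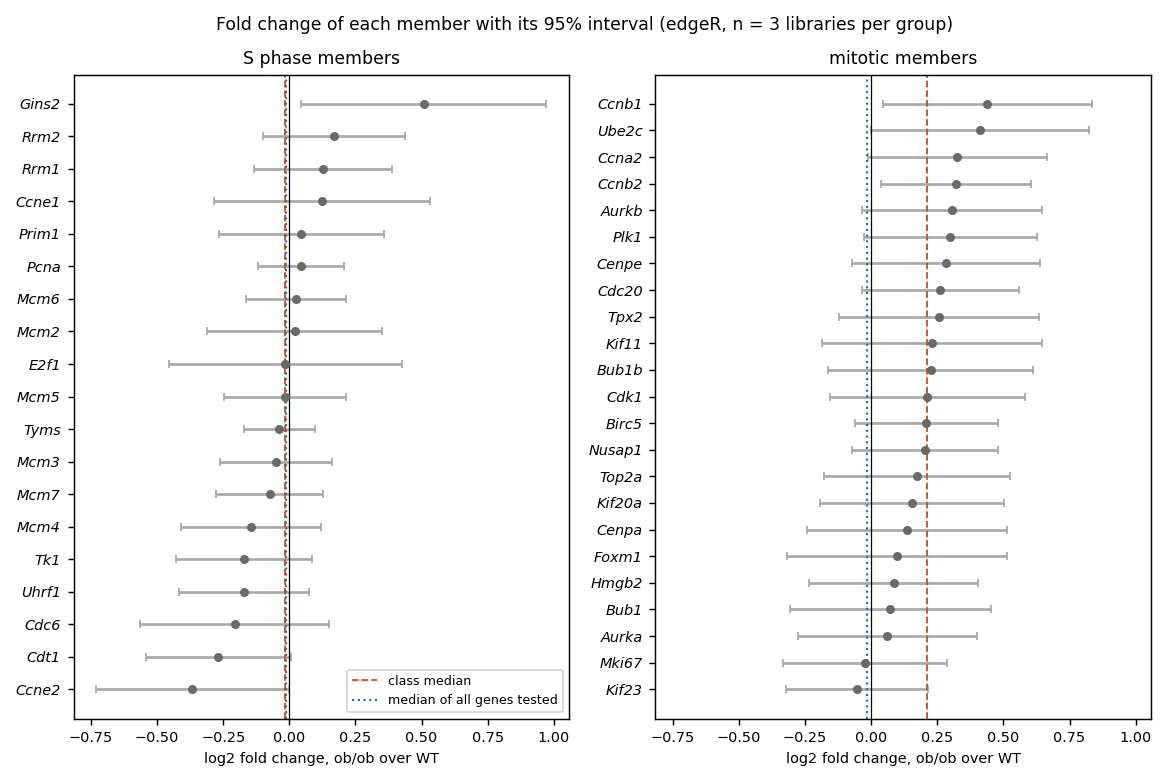
Log2 fold change, ob/ob over WT, of the 19 S phase genes (left panel) and the 23 mitotic genes (right panel). Points are the edgeR estimates over 3 libraries per group and bars their 95% intervals, not adjusted over genes; the dashed line is the median of the class and the dotted line the median of all genes tested. The S phase genes lie on both sides of 0, between -0.37 for Ccne2 and 0.51 for Gins2, whereas 21 of the 23 mitotic genes lie to the right of 0.

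By the unadjusted p, 4 of the 42 genes were under 0.05 (Gins2, Ccnb1 and Ccnb2, higher in ob/ob, and Ccne2, lower in ob/ob), where 25.9% of all genes tested were under that value, and 13.2% on the higher side. The 3 ob/ob libraries lay above all 3 WT libraries for 3 of the 42 genes, Gins2, Ccnb2 and Aurkb, and below them for Ccne2 alone. Over all genes tested these shares were 15.8% above and 16.2% below, and among the members 7.14% and 2.38%. The SE of the members' log2 fold changes lay between 0.06 and 0.20. The 95% interval excluded a difference of 1.5-fold or more in either direction for 17 of the 19 S phase genes and for 13 of the 23 mitotic genes. It excluded a log2 difference of 1 for all 42.

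The libraries held 14661981 to 18286080 counts each, and the members were read with between 29 counts (E2f1) and 5393 counts (Mki67) in a library. No library was a repeat of another within sampling noise, and all 6 were counted. The tissue label was checked by its markers: the summed level of 5 enterocyte genes was 36340, 35898 and 33402 CPM (counts scaled to the size of the library) in ob/ob libraries and 25570, 29089 and 27823 CPM in WT libraries. Among these, Alpi, the brush border alkaline phosphatase, and Fabp2, the intestinal fatty acid binding protein, passed the threshold as higher in ob/ob. The 7 B cell markers, lymphocytes that can also divide in the gut wall, summed to 7.45, 13.4 and 7.62 CPM in ob/ob libraries and to 98.0, 47.5 and 14.4 CPM in WT libraries. The 6 germinal centre B cell markers summed to 24.5, 28.5 and 26.7 CPM in ob/ob libraries and to 34.5, 29.1 and 23.5 CPM in WT libraries. The part of these cells in the members' levels was not tested.

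The members of both classes are known to be driven from promoters with short recurring elements. E2F factors bind near the start of S phase genes, the MuvB complex with B-MYB or FOXM1 binds the cell cycle genes homology region (CHR) of mitotic genes, and NF-Y binds the CCAAT box. RefSeq promoter windows (GRCm38.p6) were matched for 34 of the 42 genes, 16 of S phase and 18 mitotic, and the 250 bases before the start were searched on both strands. The CHR words (TTTGAA or TTCGAA) were found in 9 of 18 mitotic genes (50.0%), in 2 of 16 S phase genes (12.5%) and in 19.6% of the 27025 genes with a window. The E2F words (TTTCCCGC, TTTCGCGC, TTTGCCGC or TTTGGCGC) were found in 1 of 18 mitotic genes (5.56%), in 5 of 16 S phase genes (31.2%) and in 2.16% of all. CCAAT was found in 16 of 18 mitotic genes (88.9%), in 10 of 16 S phase genes (62.5%) and in 37.5% of all. No match of 1 element overlapped a match of another in these windows. A match is a run of letters and was not tested for binding. Foxm1, Ccna2, Aurkb, Kif20a, Gins2, Mcm4, Tpx2 and Ccne2 had no window.

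The windows of 4 genes show matches of these words. Each is printed as the 250 bases before the start, read 5′ to 3′ on the strand of the gene, with matches in capitals. Ccnb2 (cyclin B2, chr9:70421555-70421804, minus strand) was the mitotic gene with the smallest p. Its capitals mark a CHR word, which begins 167 bases before the start, and CCAAT boxes at 87, 54 and 21 bases before the start. Bases after the start were not searched, and whether this word acts as a CHR was not tested. In Cdc20 (the activator of the APC/C, chr4:118437344-118437593, minus strand) a CHR word begins nearer, at 18 bases before the start, with CCAAT boxes at 53 and 8 bases. In Mcm5 (chr8:75109259-75109508, plus strand) and Mcm6 (chr1:128359706-128359955, minus strand), subunits of the replicative helicase, the capitals mark E2F words and CCAAT boxes. In both Mcm genes a pair of E2F words on opposite strands overlaps and is printed as 1 run of capitals.
Ccnb2: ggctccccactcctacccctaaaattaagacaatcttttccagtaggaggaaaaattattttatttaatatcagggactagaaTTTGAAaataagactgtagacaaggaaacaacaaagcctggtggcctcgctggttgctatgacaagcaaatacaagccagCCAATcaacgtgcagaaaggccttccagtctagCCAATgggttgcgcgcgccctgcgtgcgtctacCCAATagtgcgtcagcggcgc
Cdc20: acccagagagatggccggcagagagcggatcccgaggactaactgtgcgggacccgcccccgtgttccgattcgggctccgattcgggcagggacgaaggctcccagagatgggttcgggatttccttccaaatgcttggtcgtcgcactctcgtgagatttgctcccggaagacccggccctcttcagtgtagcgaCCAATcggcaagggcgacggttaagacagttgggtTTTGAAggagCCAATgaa
Mcm5: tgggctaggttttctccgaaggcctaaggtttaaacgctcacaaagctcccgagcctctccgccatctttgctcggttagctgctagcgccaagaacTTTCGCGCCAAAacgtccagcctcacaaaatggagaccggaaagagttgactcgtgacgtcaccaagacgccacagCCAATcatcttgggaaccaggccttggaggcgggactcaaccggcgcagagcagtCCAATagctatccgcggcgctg
Mcm6: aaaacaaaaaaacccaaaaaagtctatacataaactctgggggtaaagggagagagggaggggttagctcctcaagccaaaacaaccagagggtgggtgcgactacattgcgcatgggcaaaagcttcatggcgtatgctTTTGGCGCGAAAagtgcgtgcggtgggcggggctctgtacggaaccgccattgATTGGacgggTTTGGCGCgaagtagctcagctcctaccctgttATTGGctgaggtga

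At the entry to S phase stand E2f1, a transcription factor of replication genes, and the E cyclins, which activate CDK2. Ccne2 (cyclin E2, chr4:11191351-11204779) had the lowest fold change of the class. Its level was 8.68, 11.98 and 13.3 CPM in ob/ob libraries, against 13.5, 13.5 and 16.7 CPM in WT libraries. The 3 ob/ob libraries lay below the 3 WT libraries, but the highest of ob/ob (13.33 CPM) and the lowest of WT (13.52 CPM) nearly met. Its log2 fold change was -0.37 ± 0.16 (SE, adjusted p = 0.190), and 17.4% of its exon bases overlap Ints8 on the other strand. For its paralogue Ccne1 (cyclin E1) the levels were 4.001, 3.53 and 4.52 CPM in ob/ob libraries, against 3.66, 3.03 and 4.31 CPM in WT libraries. The groups overlapped, with the highest value in ob/ob library 3 and the lowest in WT library 2, and the log2 fold change was 0.12 ± 0.18 (SE, adjusted p = 0.703). The pair thus had estimates of opposite sign, and neither passed the threshold. E2f1, the least abundant member, was at 1.79 to 2.56 CPM over ob/ob libraries and 2.20 to 2.31 CPM over WT libraries, with a log2 fold change of -0.02.

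Licensing of origins loads MCM2-7 with the help of CDC6 and CDT1. Cdc6 had a log2 fold change of -0.21 ± 0.16 (SE, adjusted p = 0.438) and Cdt1 of -0.27 ± 0.12 (SE, adjusted p = 0.203). Cdt1 was highest in WT library 2 (20.7 CPM), the library that was lowest for 9 of the 19 S phase genes. Per kilobase of exon, the 6 Mcm transcripts spanned a wider range than the libraries of any 1 of them. Mcm6 was the most abundant, at 11.3 ± 0.812 CPM per kb in ob/ob and 11.1 ± 1.05 CPM per kb in WT libraries (SD, n = 3 each). Mcm7, Mcm4, Mcm5 and Mcm3 followed at 7.12, 6.79, 6.74 and 5.63 CPM per kb over all 6 libraries, and Mcm2 was lowest, at 3.30 ± 0.340 CPM per kb in ob/ob and 3.24 ± 0.692 CPM per kb in WT libraries. The intermediate Mcm7, Mcm4 and Mcm5 lay within the SD of each other. The length used was the union of all annotated exons, 6956 bases for Mcm2 and 3589 to 4666 bases for the other subunits. In CPM not divided by length, Mcm2 (means of 23.0 in ob/ob and 22.6 in WT libraries) was above Mcm3 (20.8 and 21.5). The last place of Mcm2 thus depends on that length, and the length of the transcripts present was not tested.

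Mcm2 was at 25.5, 20.8 and 22.6 CPM in ob/ob libraries, against 22.9, 17.6 and 27.2 CPM in WT libraries. Mcm3 was at 20.4, 20.9 and 21.01 CPM in ob/ob libraries, against 23.4, 18.7 and 22.3 CPM in WT libraries. For both, WT library 2 was the lowest of the 6 and the ob/ob values fell inside the WT range. Mcm4 was at 21.4, 22.5 and 25.6 CPM in ob/ob libraries, against 28.6, 21.3 and 26.7 CPM in WT libraries. Mcm5 was at 27.5, 26.6 and 26.2 CPM in ob/ob libraries, against 29.5, 22.5 and 29.1 CPM in WT libraries. Again WT library 2 was low, and for Mcm5 the other WT libraries were above all ob/ob libraries. Mcm6 was at 48.7, 56.1 and 53.9 CPM in ob/ob libraries, against 55.3, 46.3 and 54.3 CPM in WT libraries. Mcm7 was at 32.8, 27.5 and 31.8 CPM in ob/ob libraries, against 33.6, 29.3 and 34.1 CPM in WT libraries. The groups overlapped for all 6 subunits, and their log2 fold changes were 0.02 (Mcm2), -0.05 (Mcm3), -0.14 (Mcm4), -0.02 (Mcm5), 0.02 (Mcm6) and -0.08 (Mcm7). The subunit farthest from 0 was Mcm4, at -0.14 ± 0.12 (SE, adjusted p = 0.472), with a 95% interval of -0.41 to 0.12. For Mcm6 the interval of the difference was -0.17 to 0.21. The assignment of some Mcm7 reads is uncertain. Of its exon bases 7.25% overlap Ap4m1 on the other strand, and the gene hosts the microRNAs Mir25 and Mir93.

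**Figure D2:**
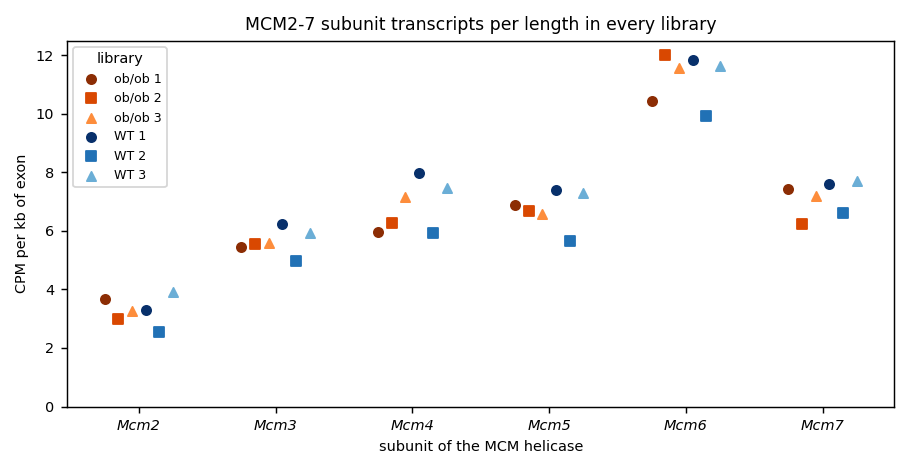
Level of the 6 MCM2-7 transcripts in CPM per kilobase of exon (linear axis from 0), with 1 point for each library, ob/ob libraries to the left of WT libraries. Per length, Mcm6 stood above the other subunits and Mcm2 below them in every library, and the points of the groups overlap for each subunit. The length is the union of all annotated exons, which is longest for Mcm2 (6956 bases).

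At the fork, Pcna encodes the sliding clamp and was the most abundant S phase gene per length, at 29.6 ± 2.22 CPM per kb in ob/ob and 28.7 ± 1.48 CPM per kb in WT libraries (SD, n = 3 each). Its levels were 76.6, 70.2 and 66.00 CPM in ob/ob libraries, against 66.7, 66.7 and 72.9 CPM in WT libraries. The values of the groups interleaved, and the log2 fold change of 0.04 ± 0.07 (SE, adjusted p = 0.734) had an interval of -0.12 to 0.21, among the narrowest of the members. The annotation also holds the pseudogenes Pcna-ps1 and Pcna-ps2, so that the assignment of some Pcna reads is uncertain. Gins2, a subunit of the GINS complex that activates the MCM helicase, had the highest fold change and the smallest p of the S phase class. It was among the least abundant members, with counts of 63, 73 and 52 in ob/ob libraries and 50, 32 and 57 in WT libraries. All ob/ob libraries were above all WT libraries, though ob/ob library 3 (3.09 CPM) and WT library 3 (3.03 CPM) nearly met. Its log2 fold change was 0.51 ± 0.20 (SE, adjusted p = 0.158). Of the exon bases of Gins2 (chr8:120578633-120589304, minus strand), 67.3% overlap exons of Gse1 on the opposite strand, and since no source used here says if reads were counted by strand, those of the 2 genes, as of the other overlapping pairs named here, cannot be told apart. Prim1, the catalytic subunit of primase, had a log2 fold change of 0.05.

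Deoxynucleotides for replication are made by ribonucleotide reductase, with the large subunit Rrm1 and the small subunit Rrm2. Rrm1 was at 48.2, 36.5 and 42.5 CPM in ob/ob libraries, against 41.9, 33.3 and 41.04 CPM in WT libraries. Rrm2 was at 17.9, 15.1 and 16.6 CPM in ob/ob libraries, against 16.1, 12.3 and 15.6 CPM in WT libraries. Both were highest in ob/ob library 1 and lowest in WT library 2, and the groups overlapped. Rrm1 had a log2 fold change of 0.13 ± 0.12 (SE, adjusted p = 0.522) and Rrm2 of 0.17 ± 0.12 (SE, adjusted p = 0.405). Thymidylate synthase (Tyms) and thymidine kinase (Tk1) had log2 fold changes of -0.04 and -0.17, and that of Tyms had the smallest SE of all members, 0.06. Uhrf1, which carries DNA methylation over to the new strand, was at 33.1, 26.4 and 27.8 CPM in ob/ob libraries, against 36.2, 28.7 and 33.3 CPM in WT libraries. The highest library was WT 1 and the lowest ob/ob 2, with overlap, and the log2 fold change was -0.17 ± 0.11 (SE, adjusted p = 0.344). E2f1, Cdc6, Cdt1, Prim1, Tyms and Tk1, the 6 S phase genes given here without every library, lay between -0.27 (Cdt1) and 0.05 (Prim1) on the log2 scale, and their groups overlapped.

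**Figure D3:**
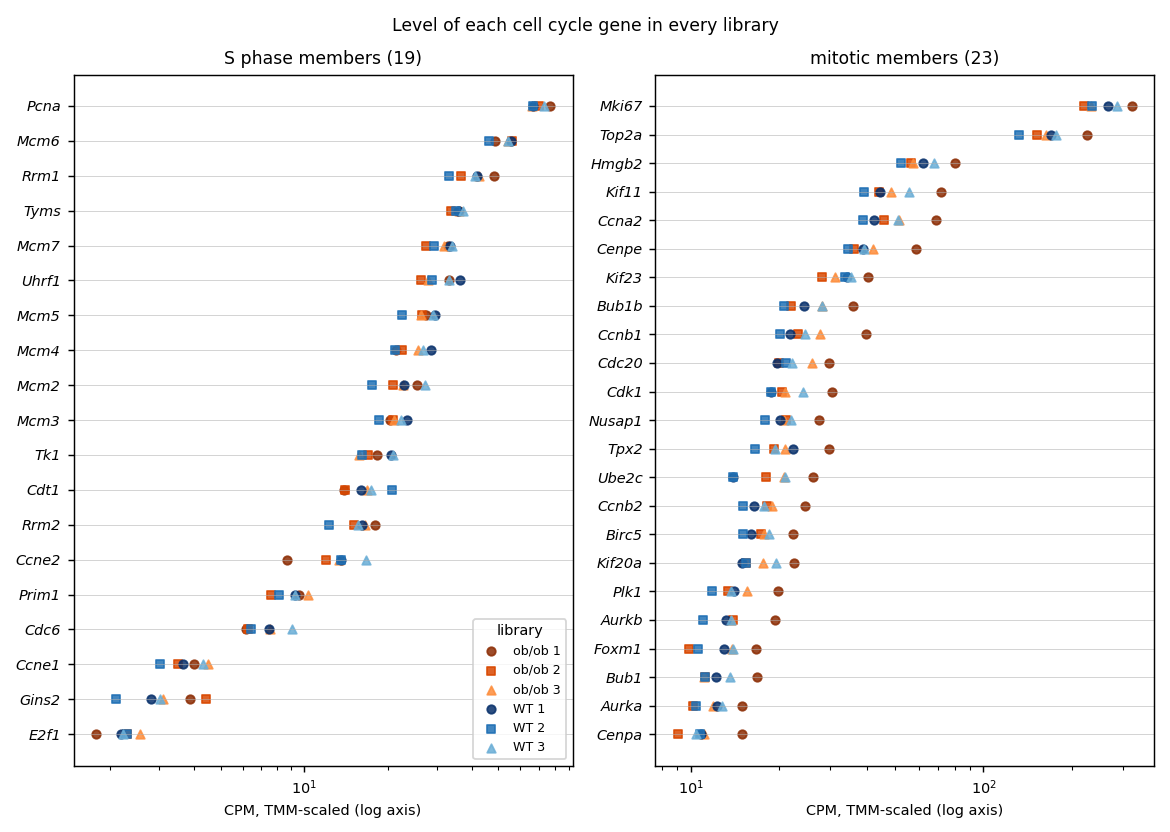
Level of each of the 42 genes in every library, in CPM scaled with TMM factors (log axis), S phase genes on the left and mitotic genes on the right, ordered by mean level. Orange to brown symbols are ob/ob libraries and blue symbols WT libraries. The brown circle of ob/ob library 1 is the rightmost symbol in all 23 mitotic rows, but in 3 of the 19 S phase rows.

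Among mitotic genes, Mki67, which encodes the proliferation marker Ki-67, was the most abundant per length (25.7 ± 5.42 CPM per kb in ob/ob and 26.1 ± 2.63 CPM per kb in WT libraries; SD, n = 3 each). Its levels were 321, 221 and 233 CPM in ob/ob libraries, against 266, 234 and 287 CPM in WT libraries. The highest and the lowest of all 6 values were both in ob/ob libraries, 1 and 2, and the group means were nearly equal. Its log2 fold change was -0.02 ± 0.14 (SE, adjusted p = 0.930), with an interval of -0.33 to 0.29. Top2a, the topoisomerase that untangles sister chromatids, was at 225, 153 and 163 CPM in ob/ob libraries, against 171, 132 and 177 CPM in WT libraries. Hmgb2, a chromatin protein abundant in dividing cells, was at 79.7, 56.6 and 57.2 CPM in ob/ob libraries, against 62.3, 52.3 and 67.7 CPM in WT libraries. In both, ob/ob library 1 stood above the other 5 libraries and WT library 2 was lowest. Their log2 fold changes were 0.17 ± 0.15 (SE, adjusted p = 0.517) for Top2a and 0.08 ± 0.14 (SE, adjusted p = 0.742) for Hmgb2.

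The cyclins that drive mitosis had some of the larger estimates. Ccnb1 (cyclin B1, chr13:100778650-100786570) had the highest fold change of the class. It was at 39.6, 23.3 and 27.6 CPM in ob/ob libraries, against 21.8, 20.2 and 24.6 CPM in WT libraries. Its ob/ob library 1 was far above the rest, and ob/ob library 2 was below WT library 3, so the groups overlapped. The log2 fold change was 0.44 ± 0.17 (SE, adjusted p = 0.154), or 1.36-fold with an interval of 1.03 to 1.78. Ccnb2 (cyclin B2), whose window is printed above, had the smallest p of the class, with levels of 24.6, 18.2 and 18.9 CPM in ob/ob libraries, against 16.5, 15.1 and 17.8 CPM in WT libraries. All 3 ob/ob libraries were above all 3 WT libraries, and ob/ob library 2 was the nearest to WT. Its log2 fold change was 0.32 ± 0.13 (SE, adjusted p = 0.150). Without ob/ob library 1 the estimates were 0.19 for Ccnb1 and 0.17 for Ccnb2. The annotated pseudogenes Ccnb1-ps and Ccnb2-ps leave part of these counts uncertain. Ccna2 (cyclin A2), which acts in S phase as well as in G2, was at 68.6, 45.8 and 51.5 CPM in ob/ob libraries, against 42.4, 38.8 and 50.9 CPM in WT libraries. Of the ob/ob libraries 1 and 3 were above all WT libraries and 2 was below WT library 3, and the log2 fold change was 0.33 ± 0.15 (SE, adjusted p = 0.206). Exosc9 overlaps 12.5% of its exon bases on the other strand. Cdk1, the kinase these cyclins activate, had a log2 fold change of 0.21 ± 0.16 (SE, adjusted p = 0.441).

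The kinases of the spindle were compared as pairs. Aurka, which acts at centrosomes, was at 15.02, 10.2 and 11.9 CPM in ob/ob libraries, against 12.3, 10.4 and 12.8 CPM in WT libraries. Aurkb, the kinase of the chromosomal passenger complex, was at 19.4, 13.9 and 13.7 CPM in ob/ob libraries, against 13.2, 11.01 and 13.7 CPM in WT libraries. Both were highest in ob/ob library 1, and for Aurkb the groups did not overlap, with 13.75 CPM in ob/ob library 3 and 13.71 CPM in WT library 3. Aurka had a log2 fold change of 0.06 ± 0.15 (SE, adjusted p = 0.833) and Aurkb of 0.31 ± 0.15 (SE, adjusted p = 0.238). Bub1, a kinase of the spindle checkpoint, was at 16.8, 11.2 and 11.1 CPM in ob/ob libraries, against 12.2, 11.2 and 13.7 CPM in WT libraries. Bub1b, which encodes the checkpoint protein BubR1, was at 35.95, 21.95 and 28.03 CPM in ob/ob libraries, against 24.3, 20.8 and 28.2 CPM in WT libraries. The groups overlapped for both genes: for Bub1, ob/ob library 1 was above all WT libraries and ob/ob libraries 2 and 3 were below them, and for Bub1b, ob/ob libraries 2 and 3 lay inside the WT range. Bub1 had a log2 fold change of 0.07 ± 0.17 (SE, adjusted p = 0.819) and Bub1b of 0.23 ± 0.17 (SE, adjusted p = 0.438). Plk1, the Polo-like kinase, had a log2 fold change of 0.30 ± 0.15 (SE, adjusted p = 0.229). Birc5, which encodes the passenger protein survivin, had one of 0.21 ± 0.12 (SE, adjusted p = 0.301).

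Exit from mitosis depends on the APC/C, with Cdc20 as activator and Ube2c as ubiquitin-conjugating enzyme. Cdc20 was at 29.6, 20.00 and 26.01 CPM in ob/ob libraries, against 19.8, 21.1 and 22.2 CPM in WT libraries. The ob/ob libraries 1 and 3 were above all WT libraries, and ob/ob library 2 was inside the WT range. Its log2 fold change was 0.26 ± 0.13 (SE, adjusted p = 0.245). Ube2c had one of 0.41 ± 0.18 (SE, adjusted p = 0.195), and 22.8% of its exon bases overlap Tnnc2 on the other strand. Of the kinesin motors, Kif23, which acts in cytokinesis, had the lowest fold change of the class, with 40.4, 28.2 and 31.00 CPM in ob/ob libraries, against 34.3, 33.7 and 35.2 CPM in WT libraries. The WT values were close together and the ob/ob values lay on both sides of them. The log2 fold change was -0.05 ± 0.12 (SE, adjusted p = 0.816), with an interval of -0.32 to 0.22. Kif11, the motor that separates spindle poles, and Kif20a, which acts late in mitosis, had log2 fold changes of 0.23 and 0.15, and 29.3% of the exon bases of Kif20a overlap Cdc23 on the other strand. The spindle proteins Tpx2 and Nusap1 had 0.26 and 0.20, the kinetochore genes Cenpa and Cenpe had 0.14 and 0.28, and Foxm1, the transcription factor of mitotic genes, had 0.10. The 11 mitotic genes given without every library lay between 0.10 (Foxm1) and 0.41 (Ube2c), and their groups overlapped.

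The most regular feature of the mitotic genes was in a single library. In 23 of 23 mitotic genes ob/ob library 1 was the highest of the 6 libraries, while it was highest in 3 of 19 S phase genes (Pcna, Rrm1 and Rrm2) and in 17.8% of all genes tested. Relative to the mean of ob/ob libraries 2 and 3 it was higher by a median of 0.50 (log2) over the mitotic genes, from 0.34 for Birc5 to 0.64 for Ccnb1. Over the S phase genes that median was 0.04, from -0.54 for Ccne2 to 0.29 for Uhrf1, and over all genes tested it was -0.00. In the WT group library 2 was low for both classes: it was the lowest of the 6 for 13 mitotic and 9 S phase genes, against 21.6% of all genes. Its median deviation from WT libraries 1 and 3 was -0.24 over the mitotic and -0.29 over the S phase genes. The same library stood apart in markers of other tissue. Adipoq, which encodes the fat cell hormone adiponectin, was at 1.05, 0 and 0.833 CPM in ob/ob libraries, against 4.34, 26.8 and 2.71 CPM in WT libraries, where the 0 counts of ob/ob library 2 allow up to 0.182 CPM. The complement factor gene Cfd, also called adipsin, was at 0.0608 to 0.476 CPM over ob/ob libraries, against 6.93, 41.5 and 6.43 CPM in WT libraries. The 5 smooth muscle genes summed to 660.0, 597 and 457 CPM in ob/ob libraries and to 533, 790 and 624 CPM in WT libraries. WT library 2 was thus highest for Adipoq, Cfd and the smooth muscle sum. Of the other fat cell markers, Plin1 was also highest there (9.56 CPM), but Cidec was not. Cidec was at 84.8, 96.9 and 92.5 CPM in ob/ob libraries, against 69.6, 86.0 and 70.0 CPM in WT libraries. Among the smooth muscle genes, Des was highest in ob/ob library 1 (111 CPM, against 99.0 CPM in WT library 2). The part of such tissue in the low cell cycle values of WT library 2 was not tested.

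The same held for sums. The 19 S phase genes together gave 454, 424 and 444 CPM in ob/ob libraries and 466, 404 and 477 CPM in WT libraries. The ob/ob libraries averaged 441 ± 15.6 CPM and the WT libraries 449 ± 38.9 CPM (SD, n = 3 each), a ratio of 0.982. The 23 mitotic genes gave 1256, 847 and 924 CPM in ob/ob libraries and 923, 805 and 1008 CPM in WT libraries. Here the ob/ob libraries averaged 1009 ± 218 CPM and the WT libraries 912 ± 102 CPM, a ratio of 1.11, and without ob/ob library 1 the ratio was 0.970. The groups overlapped for both sums. The mitotic sum was 2.76 times the S phase sum in ob/ob library 1, and 1.999 and 2.08 times in ob/ob libraries 2 and 3, against 1.98, 1.99 and 2.12 times in WT libraries.

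**Figure D4:**
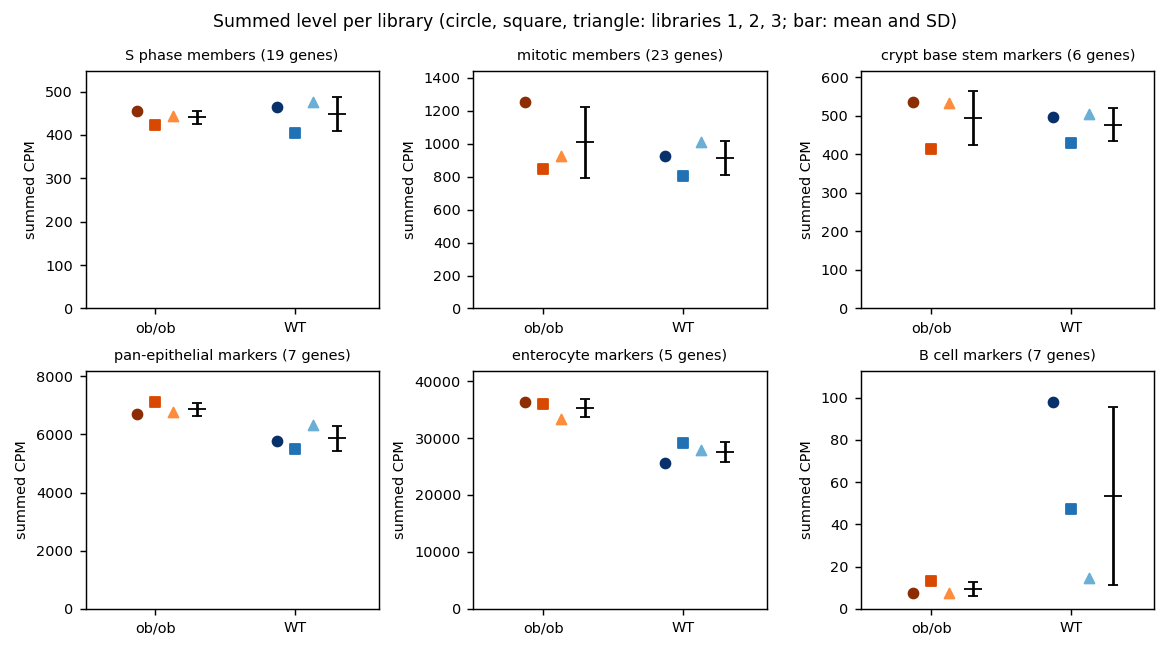
Summed CPM of the S phase genes, the mitotic genes and 4 lists of cell type markers in each library (linear axes from 0), ob/ob to the left of WT; circles, squares and triangles are libraries 1, 2 and 3, and bars are mean and SD. For the mitotic genes 1 ob/ob library, at 1256 CPM, stands above the other 5, whereas for the enterocyte markers all ob/ob libraries are above all WT libraries.

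Markers of the crypt base, where the stem cells lie, were set beside these sums. The 6 genes Lgr5, Olfm4, Ascl2, Smoc2, Axin2 and Slc12a2 summed to 537, 415 and 532 CPM in ob/ob libraries and to 498, 429 and 505 CPM in WT libraries, and 0 of 6 passed the threshold. In ob/ob libraries 1 and 3 these sums were nearly the same, while the mitotic sums of those libraries were 1256 and 924 CPM. The 4 Paneth cell genes summed to 4760, 3330 and 4473 CPM in ob/ob libraries and to 3337, 2433 and 4061 CPM in WT libraries. Most of the germinal centre marker sums given above came from Bcl6 and Rgs13, at means of 15.8 and 6.56 CPM in ob/ob libraries. The order of the libraries in those sums is therefore not read here. A set of 7 genes of the whole epithelium (Epcam, Krt8, Krt18, Krt19, Cdh1, Cldn7 and Elf3) summed to 6692, 7118 and 6789 CPM in ob/ob libraries and to 5771, 5503 and 6337 CPM in WT libraries, with 0 of 7 past the threshold.

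Set against the sum of those epithelial genes, the S phase transcripts were lower in all 3 ob/ob libraries. Per 1000 CPM of the 7 epithelial genes there were 67.9, 59.5 and 65.4 CPM of S phase genes in ob/ob libraries and 80.7, 73.5 and 75.2 CPM in WT libraries, a ratio of 0.841 with no overlap. The mitotic genes gave 188, 119 and 136 CPM in ob/ob libraries and 160.0, 146 and 159 CPM in WT libraries, a ratio of 0.951 with overlap. Relative to the crypt base genes the ratio of ob/ob to WT was 0.958 for S phase and 1.07 for mitotic genes. These ratios are descriptions of 3 libraries per group and carry no test. Krt8 was the most abundant of the 7 epithelial genes. It was at 2983, 3194 and 2933 CPM in ob/ob libraries, against 2400, 2111 and 2618 CPM in WT libraries. Its log2 fold change was 0.35 ± 0.09 (SE, adjusted p = 0.0587). The lack of overlap for the S phase genes may thus rest on Krt8, and the epithelial sum without it was not tested.

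Beyond the 42 genes, 9 lists of other cell cycle genes were examined in the same fit. In 7 of them 0 genes passed the threshold: origin licensing and firing (21 tested genes, median log2 fold change 0.07), polymerases and fork proteins (25, -0.01), nucleotide supply and chromatin assembly (15, 0.09), kinetochore and spindle checkpoint (24 of 25 listed, 0.13), mitotic kinesins, spindle and cytokinesis (27, 0.23), condensin and cohesin (11, 0.03), and mitotic exit (17, 0.07). Of the kinetochore list 21 of 24 and of the kinesin list 26 of 27 genes had an estimate above 0. In sum, 7 of the 9 lists were highest in ob/ob library 1, the origin and nucleotide lists by little and the kinetochore and kinesin lists by more. The kinesin list summed to 693, 503 and 512 CPM in ob/ob libraries and to 490, 450 and 545 CPM in WT libraries, and the origin list to 375, 349 and 363 CPM in ob/ob libraries and to 363, 341 and 366 CPM in WT libraries. The gene with the smallest p in the kinesin list was Pbk, a mitotic kinase, at 0.43 ± 0.14 (SE, adjusted p = 0.0921), in the condensin list Ncapg, a condensin subunit, at 0.32 ± 0.10 (SE, adjusted p = 0.0970), and in the mitotic exit list Ube2s, a ubiquitin-conjugating enzyme of the APC/C, at 0.29 ± 0.10 (SE, adjusted p = 0.107). In the other lists they were Casc5, a kinetochore scaffold, at 0.32 ± 0.14 (SE, adjusted p = 0.191), Chaf1a, a histone chaperone subunit, at 0.23 ± 0.10 (SE, adjusted p = 0.205), Fen1, the flap endonuclease, at 0.24 ± 0.11 (SE, adjusted p = 0.212), and Mcm9, a helicase of DNA repair, at 0.17 ± 0.09 (SE, adjusted p = 0.261).

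The list of G1 cyclins, their kinases and the kinase inhibitors and the list of E2F, pocket and MuvB proteins each held 1 gene past the threshold, of 14 and 18 tested. These shares were near the 5.67% of all genes tested. Cdkn1a encodes p21, an inhibitor of cyclin-dependent kinases. It was at 90.7, 107 and 93.4 CPM in ob/ob libraries, against 68.3, 73.6 and 70.4 CPM in WT libraries. All ob/ob libraries were above all WT libraries by more than the spread within either group. The log2 fold change was 0.45 ± 0.07 (SE, adjusted p = 0.0141), or 1.37-fold with an interval of 1.22 to 1.54. Its list had a median of -0.11. Rbl2 encodes p130, a pocket protein that holds E2F targets silent in resting cells. It was at 54.2, 55.6 and 54.99 CPM in ob/ob libraries, against 66.9, 67.2 and 66.3 CPM in WT libraries. The ob/ob values were all below the WT values, and each group was tight. The log2 fold change was -0.28 ± 0.05 (SE, adjusted p = 0.0197), in a list with a median of -0.04. With 1 library fewer the Rbl2 difference kept its direction but did not pass when ob/ob library 1, 2 or 3 was left out (adjusted p = 0.0686, 0.0588 and 0.0609), nor when WT library 2 was (adjusted p = 0.0545). Over all its alternatives the adjusted p of Rbl2 was 0.00466 to 0.0686.

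**Figure D5:**
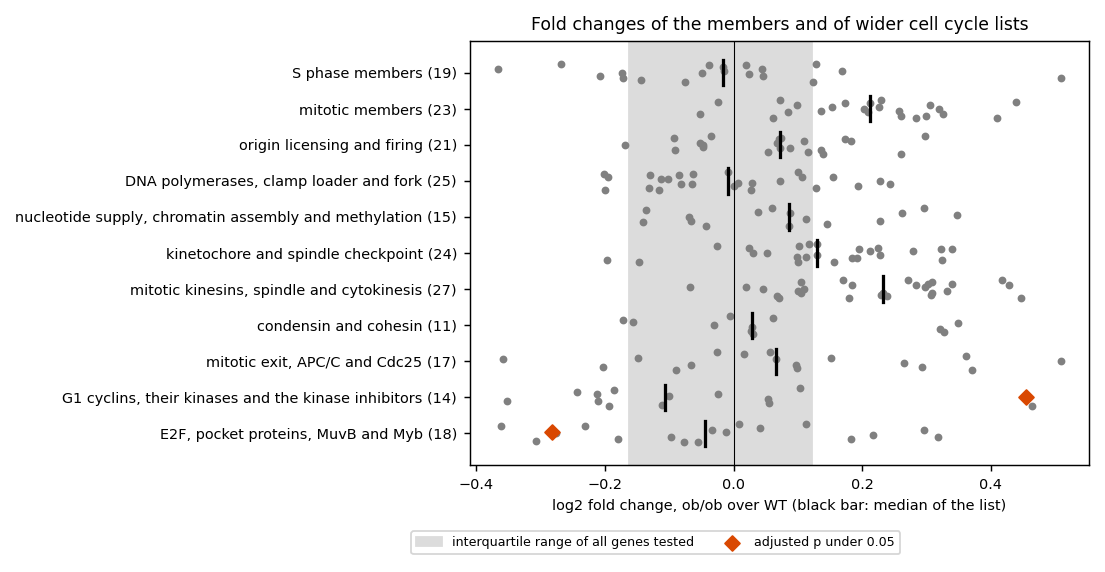
Log2 fold change, ob/ob over WT, of the members and of the 9 wider lists, with 1 point for each tested gene (numbers in brackets) and a black bar at the median of each list; the grey band is the interquartile range of all genes tested. Diamonds are the 2 genes past the threshold, Cdkn1a at 0.45 and Rbl2 at -0.28, and the mitotic, kinetochore and kinesin lists have their medians to the right of the band.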

How the data were processed

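Bulk RNA sequencing reads of the 6 libraries were aligned by the authors to mm10 with TopHat2 and counted per gene with HTSeq 0.6p1, per the submitters' processing notes. The sources used here do not say if strand was used in counting. Raw counts, deposited per gene symbol and not normalized, were the input. The authors' deposited comparison, with fold changes and p-values, was not used, nor were 42 other columns of per-sample values. A gene was kept with more than 1 CPM in 3 or more libraries, and ob/ob was compared with WT by the quasi-likelihood test of edgeR 4.0.16 in R 4.3.3, with TMM factors, group alone in the model, two-sided p-values and Benjamini-Hochberg adjustment at 0.05. The SE was the size of the log2 fold change divided by the square root of F. P-values measure the spread between pools of 2 jejuna. In these libraries 3 counts were 0.159 to 0.198 CPM.

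Members and lists were chosen with earlier results of these data known. All members were reported. Values in every library were given for the 5 most abundant genes per kilobase, the smallest p and the extreme fold changes of each class, the Mcm subunits and 5 pairs of related genes. Of each wider list, genes past the threshold or the smallest p were named. Exon lengths, positions and overlaps are from GENCODE M21 (GRCm38, the assembly of mm10), and sequences from RefSeq (GRCm38.p6). Alternatives were other scalings and filters, DESeq2 1.42.0, limma-voom 3.58.1, the likelihood ratio test, the replicate number as a block, members of more than 1 phase left out, and each library left out. The procedure was tested on simulated data, with 100 genes changed 1.5-fold and 100 changed 2-fold. It recovered 75% of the 1.5-fold and 98% of the 2-fold changes, and 17 of its 190 calls were false. A true change of 1.5-fold or less could thus be missed. Figures were drawn with matplotlib 3.10.9.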

Additional observations from a re-analysis of the deposited data

How the results depend on the processing

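The count of members past the threshold was 0 of 42 in the main analysis and 0 of those tested under every alternative run, which were fewer where members of more than 1 phase were left out and with a mean CPM of at least 5 (39 members, without E2f1, Gins2 and Ccne1). Cdkn1a passed in each refit. Pbk, which missed the threshold in the main analysis, passed with the likelihood ratio test (adjusted p = 0.0478) and when WT library 3 was left out (adjusted p = 0.0495), with a range of adjusted p from 0.0478 to 0.259 over its alternatives. The count of genes past the threshold was 747, against 1735 with library size alone (328 higher and 1407 lower in ob/ob, where 496 were higher and 251 lower in the main analysis) and 1404 with the likelihood ratio test, and 122 to 674 with 1 library left out. With upper quartile factors the split was 390 higher and 468 lower. Library size alone moved the median of all genes from -0.01 to -0.13 on the log2 scale, the median of the S phase genes to -0.13 and the ratio of their sum to 0.906. In the same setting the median of the mitotic genes was 0.10, against 0.21 in the main analysis, with 17 of 23 above 0 and a ratio of their sum of 1.02. Relative to that shift the S phase genes were again near the median of all genes. Against the pan-epithelial genes, of which Krt8 was the most abundant, the ratio of the S phase sum was 0.841. With 1 library left out the median was -0.13 (without WT library 2) to 0.017 over the S phase genes and 0.03 to 0.31 over the mitotic genes.

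Some estimates changed sign. With library size alone these were Pcna (-0.071), Mcm2 (-0.094), Mcm6 (-0.094), Prim1 (-0.068), Bub1 (-0.040), Aurka (-0.052), Foxm1 (-0.013) and Hmgb2 (-0.028), and with upper quartile factors Mcm2 (-0.021) and Mcm6 (-0.017). With 1 library left out the ranges that crossed 0 were -0.13 to 0.12 for E2f1, -0.014 to 0.090 for Pcna, -0.13 to 0.18 for Mcm2, -0.14 to 0.017 for Mcm3, -0.13 to 0.047 for Mcm5, -0.051 to 0.080 for Mcm6, -0.052 to 0.16 for Prim1, -0.21 to 0.075 for Mki67, -0.018 to 0.28 for Top2a, -0.15 to 0.17 for Bub1, -0.10 to 0.18 for Aurka, -0.014 to 0.38 for Kif11, -0.011 to 0.29 for Kif20a, -0.22 to 0.050 for Kif23, -0.085 to 0.28 for Foxm1, -0.096 to 0.17 for Hmgb2 and -0.081 to 0.29 for Cenpa. The cause was not tested.

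With the replicate number as a block 730 genes passed, the members' count was 0, and the class medians were -0.02 and 0.21. In that setting 8 of 23 mitotic genes had an unadjusted p under 0.05, against 2 without the block. Of all 13168 genes tested, 3345 had such a p with the block and 3409 without it. Same-numbered libraries did not deviate together (r = -0.08, 0.07 and -0.02), so the numbers were not taken as pairs. Depth limits the least abundant members, E2f1, Gins2 and Ccne1, with counts of 29 to 81 in a library.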
